A study of Mus musculus with 21 samples.

Results

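The step from day 5 to day 10 was described in mouse CD8 T cells kept in a low dose of IL-2v. The OT1 line carries a transgenic T cell receptor for a peptide of ovalbumin. Naive OT1 cells were activated on day 0 with beads coated with antibodies to CD3 and CD28 and expanded with IL-2v at 5 IU/mL, and 1 single-cell RNA library was made on day 5 and 1 on day 10. IL-2v is named in the labels as a mutant IL-2bg, a variant of IL-2. All cells of both libraries were taken: 4747 cells on day 5 and 6181 on day 10, together 10928 of the 106456 cells in 21 libraries. The other libraries used here were naive cells of day 0, activated cells without cytokine on days 3 and 5, IL-2v at 5 IU/mL on day 3, and days 5 and 10 of IL-2 at 5 IU/mL, IL-15 at 5 IU/mL and IL-2v at 50 IU/mL. Every activated library shared the same bead activation. The labels give no age or sex of the mice and do not say how many mice a library came from. Each condition had 1 library, so no spread between cultures could be estimated and no test was made. Intervals are 95% intervals for counting error only.

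IL-2 signals through a receptor of an alpha, a beta and a common gamma chain (Il2ra, Il2rb, Il2rg), the kinases JAK1 and JAK3 and the transcription factor STAT5. In activated CD8 T cells strong IL-2 signals are known to drive growth, glycolysis and cytotoxic effector differentiation, while weaker signals leave more cells with memory features such as expression of Tcf7 and Il7r. The title of the series frames IL-2v as an attenuated signal that couples proliferation with stemness, and the step from day 5 to day 10 asks what the culture does after the first burst of division.

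Summed counts were 18428827 UMIs on day 5 and 32648496 on day 10, where a UMI marks 1 captured RNA molecule. A cell held a median of 3491 UMIs and 1378 genes on day 5 and of 4780 UMIs and 1627 genes on day 10, and 4 barcodes were shared between the libraries. Levels are given as CPM, the counts of a gene scaled to 1000000 UMIs of its library, and shares of cells after each cell was thinned to 2000 UMIs, which left 4512 and 6123 cells. The cells were CD8 T cells by their markers: Cd3d had a UMI in 94.8% and 96.1% of unthinned cells, and Cd8b1 stood at 634 and 517 CPM. Ms4a1 (B cells), Lyz2, Csf1r and Cd14 (myeloid cells) and Ncr1 (NK cells) were at 0 in both libraries, and the 4 NK cell markers summed to 4.18 and 5.64 CPM. The summed level of 8 myeloid markers was 96.3 and 94.6 CPM, nearly all of it Cst3, and that of 7 B cell markers 427 and 262 CPM, nearly all of it Ighm. Of the Cd4, Zbtb7b and Cd40lg markers of CD4 T cells, 2 were at 0 on day 10, and their summed level was 13.3 and 2.30 CPM. The 4 gamma delta T cell markers summed to 138 and 226 CPM, mostly Trdc (132 and 195 CPM), with Tcrg-C1 called higher (2.44 to 28.0 CPM). The 3 regulatory T cell markers summed to 131 and 86.1 CPM, nearly all of it Il2ra, with Foxp3 at 0 in both libraries. At least 2 UMIs of B cell (without Ighm), myeloid, dendritic, erythroid or platelet markers were found in 422 of 4747 and 718 of 6181 unthinned cells. Cst3 held nearly all of the myeloid level and the day 10 cells were deeper, so this count does not identify cells of other lineages. Leaving these cells out gave 119 higher and 245 lower genes by the rule below, against 115 and 244, which cannot show how many such cells there were.

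Transcripts linked to RNA composition moved between the libraries too. Gm42418 and AY036118, which overlap each other on chromosome 17 where reads of ribosomal RNA are known to collect, went from 13204 to 1704 CPM and from 1111 to 195 CPM. The nuclear RNA Malat1 went from 12381 to 6194 CPM. All of these were lower on day 10 in the IL-2 5 IU/mL, IL-15 5 IU/mL and IL-2v 50 IU/mL cultures as well. Genes with long transcripts were lower: of 4 groups ranked by the longest annotated transcript, the 1444 tested genes with the shortest had a median log2 difference of 0.12 and the 1443 with the longest one of −0.31. With library totals taken without Gm42418, AY036118, Lars2 and Malat1, 104 genes were higher and 272 lower by the rule below, against 115 and 244. The counts centred by transcript length are given with the calls. Any other part of these shifts was not tested, and handling of the libraries cannot be told apart from the day of culture.

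Genes at 20 CPM or more in 1 of the libraries were tested, and a gene was called where log2(CPM + 1) differed by at least 1, which is 2-fold; adding 1 makes differences of scarce genes appear smaller. Of 5797 genes tested, 115 were called higher on day 10 (1.98%) and 244 lower (4.21%), and 13 and 40 of them differed at least 4-fold. Of the 5797 genes, 3401 stood below 0. The shares called apply beside the counts of each gene list below. The median of all tested genes was −0.10. With TMM scaling, which trims the extreme genes, this median moved up by 0.21 and the split turned to 225 higher and 150 lower genes. Centring by transcript length, chosen after seeing the data, gave 139 higher and 184 lower genes. Over 5450 genes, log2 levels differed by a root mean square of 0.53 between days 5 and 10 and 0.41 between days 3 and 5. From the naive cells, day 5 lay at 0.92 and day 10 at 0.94.

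**Figure D1:**
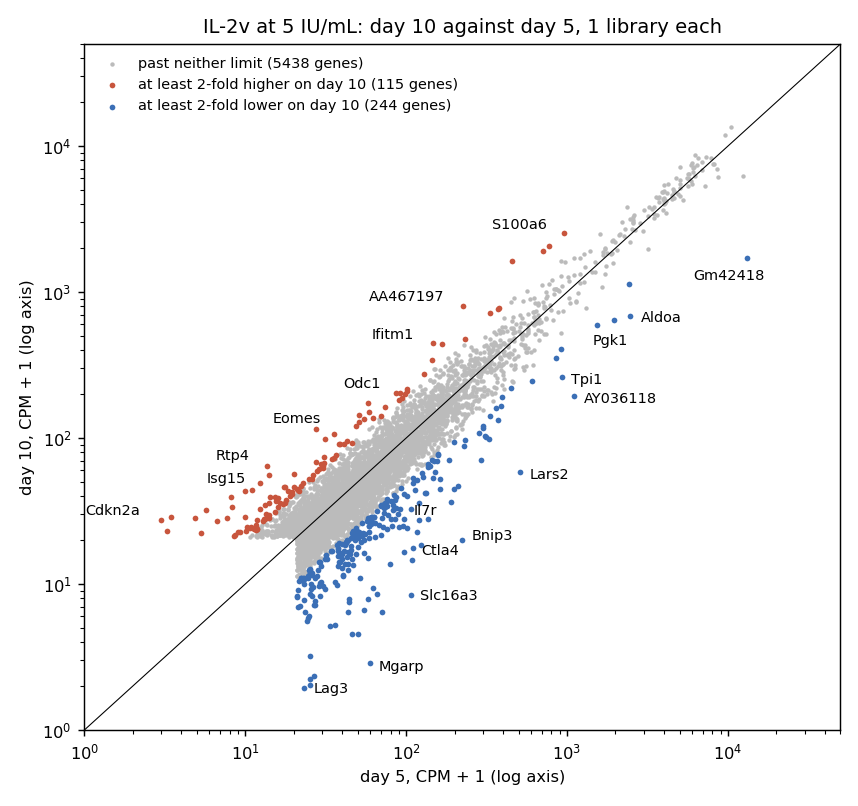
Level of each tested gene on day 5 (x axis) and day 10 (y axis), as CPM + 1 on log axes, in the 2 libraries of IL-2v at 5 IU/mL. Red points are the 115 genes called higher and blue points the 244 called lower on day 10, and the line marks equal levels. Glycolysis genes such as Aldoa and Pgk1 lie among the abundant genes below the line.

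Where the higher library had 50 CPM or more, the largest fall was that of Mgarp. Mgarp, which encodes a mitochondrial membrane protein, stood at 58.3 CPM (54.9 to 61.9) on day 5 and at 1.87 CPM (1.43 to 2.40) on day 10, a log2 difference of −4.37. Slc16a3, the lactate exporter MCT4 (GRCm38 chr11:120948480-120960868), went from 106 to 7.41 CPM (−3.66), and Bnip3, a mitophagy receptor, from 223 to 19.0 CPM (−3.48). Pygl, the glycogen phosphorylase of liver type, fell from 57.0 to 6.89 CPM and Plod2, a collagen lysyl hydroxylase, from 61.6 to 8.39 CPM. Mxi1, a MAX-binding repressor, fell from 53.9 to 5.61 CPM. The other genes at this end included Ncf1 (69.8 to 5.39 CPM), a subunit of the NADPH oxidase, Lars2 (510 to 57.9 CPM) and Arrb1 (65.2 to 7.50 CPM). The rest were Ctla4, Iigp1, Gsn (110 to 16.8 CPM), the histone demethylase Kdm5b (79.0 to 12.7 CPM), Tnfrsf9 and AY036118. Lars2 and AY036118 were among the transcripts left out of the totals above with Gm42418 and Malat1. Whether their falls reflect RNA composition or the genes themselves was not tested.

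At the other end stood Rtp4, an interferon-induced chaperone of receptors, with 12.6 CPM (11.02 to 14.32) on day 5 and 63.9 CPM (61.1 to 66.7) on day 10, a log2 difference of 2.25. Srm, spermidine synthase, rose from 26.5 to 114 CPM (2.06), and Odc1, the first enzyme of polyamine synthesis, from 57.4 to 173 CPM (1.58). Both enzymes act in the same short pathway from ornithine to spermidine. AA467197, which encodes a small mitochondrial protein, rose from 225 to 799 CPM, Nme1, a nucleoside diphosphate kinase, from 166 to 439 CPM, and Ndufaf4, an assembly factor of respiratory complex I, from 19.1 to 56.0 CPM. Other genes at this end were Eomes, Nolc1, S100a6, Ifitm1 and Ifitm2, described with their groups, and Gstp1 (13.1 to 55.0 CPM), Hist1h2ap and Erh (30.2 to 97.8 CPM). Gstp1, Hist1h2ap, Erh, Odc1 and Ifitm2 share at least 50% of their 31-base stretches with other annotated genes, so their counts are uncertain. Of all calls, 12 higher and 10 lower genes shared that much.

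Most genes of the glycolysis list fell. The list holds enzymes and transporters of the conversion of glucose to pyruvate and lactate, and also Pdk1, which acts after pyruvate, and the mitophagy receptor Bnip3. Of 21 genes tested in this list, 18 were called lower and 0 higher, against 4.21% of all genes called lower, and the median log2 difference was −1.37 beside −0.10 for all genes. The summed level of the list went from 13828 to 5523 CPM. The fall was present at most steps of the pathway. At glucose entry, the transporter Slc2a3 went from 117 to 21.6 CPM and Slc2a1 from 44.8 to 19.9 CPM, and the hexokinase Hk2, which traps glucose as its phosphate, from 82.3 to 33.6 CPM. Of the phosphofructokinases, which catalyse the committed step, Pfkl went from 99.8 to 23.3 CPM and Pfkp from 327 to 98.2 CPM.

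In the lower part of the pathway the abundant enzymes fell as well. Aldoa, an aldolase, went from 2459 CPM (2436 to 2482) to 680 CPM (671 to 689), Tpi1, the triose phosphate isomerase, from 923 to 261 CPM, and Pgk1, a phosphoglycerate kinase, from 1956 to 643 CPM. Gapdh stood at 2426 and 1141 CPM and the pyruvate kinase Pkm at 1531 and 597 CPM. Pdk1, a kinase that inhibits pyruvate dehydrogenase, fell from 183 to 70.1 CPM. The 3 members not called were Ldha, the lactate dehydrogenase (1316 to 773 CPM), Eno1, an enolase (363 to 436 CPM, with near copies in the genome), and the lactate transporter Slc16a1 (33.0 to 34.6 CPM). Leaving Eno1 aside, the genes that fell span the pathway from uptake to pyruvate. Of the lactate genes, Slc16a3 fell, while Ldha and Slc16a1 were not called. Pgk1, Pkm and Eno1 share at least 50% of their 31-base stretches with other annotated genes, so their counts are uncertain. Counts of 15 to 18 lower genes came out under the alternative scalings, cell filters and the centring by length, lowest with TMM scaling.

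**Figure D2:**
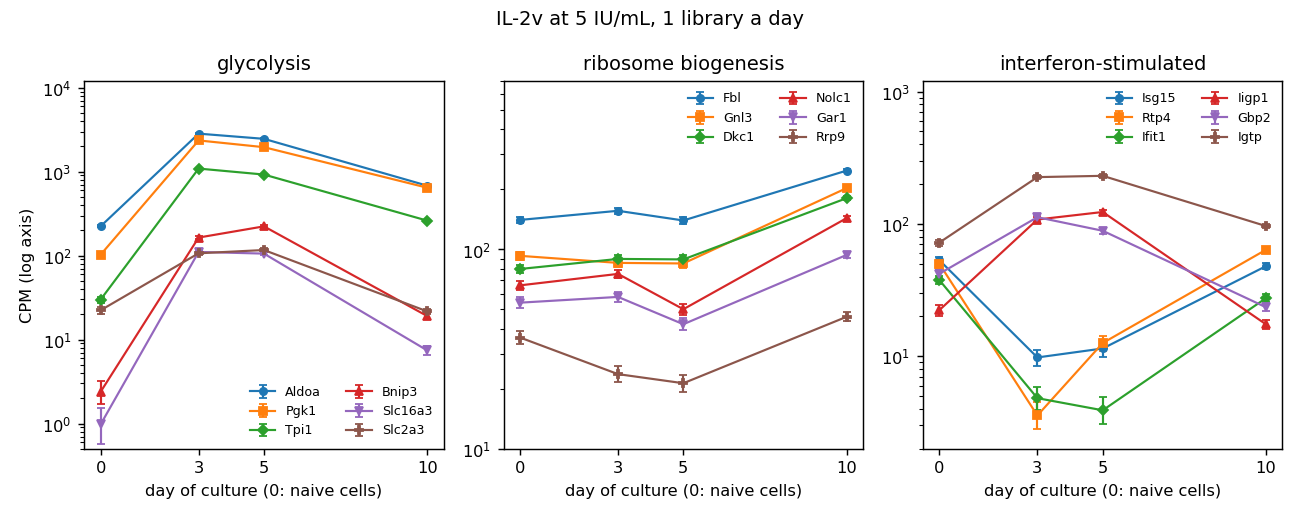
CPM on a log axis against the day of culture, where day 0 is the naive library and days 3, 5 and 10 are libraries of IL-2v at 5 IU/mL. Points are single libraries and bars are 95% Poisson intervals. The glycolysis genes peak on day 3 or 5, the ribosome biogenesis genes are highest on day 10, and the interferon-stimulated genes split into Isg15, Rtp4 and Ifit1, which are lowest on day 3 or 5, and Iigp1, Gbp2 and Igtp, which are highest there.

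The course of the same culture places these values. Aldoa was at 223 CPM in naive cells, 2835 on day 3, 2459 on day 5 and 680 on day 10, and Slc16a3 at 0.975, 111, 106 and 7.41 CPM. Bnip3 followed with 2.38, 164, 223 and 19.0 CPM. Day 10 therefore lay between the naive and the day 5 level for these genes. In cells activated without cytokine, Aldoa was at 2380 CPM on day 3 and at 419 CPM on day 5.

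The difference was seen across the cells. Per 2000 UMIs a cell held a median of 29 UMIs of the glycolysis list on day 5, with 13 and 41 as the 10th and 90th percentiles, and of 9 on day 10, with 4 and 20. Naive cells held a median of 3 and day 3 cells of 34. Of the day 10 cells, 1.19% (0.936 to 1.497) reached the day 5 median, and 5.61% (4.95 to 6.32) of the day 5 cells were at or below the day 10 median. Cells with a UMI of the division genes Mki67 or Top2a held a median of 29 on day 5 and 10 on day 10, and cells without one 29 and 9. Cells with a UMI of Slc16a3 made up 17.7% (16.6 to 18.8) on day 5 and 1.06% (0.820 to 1.35) on day 10, beside 0.224% of naive cells. The corresponding values for Bnip3 were 33.4%, 3.63% and 0.514%.

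**Figure D3:**
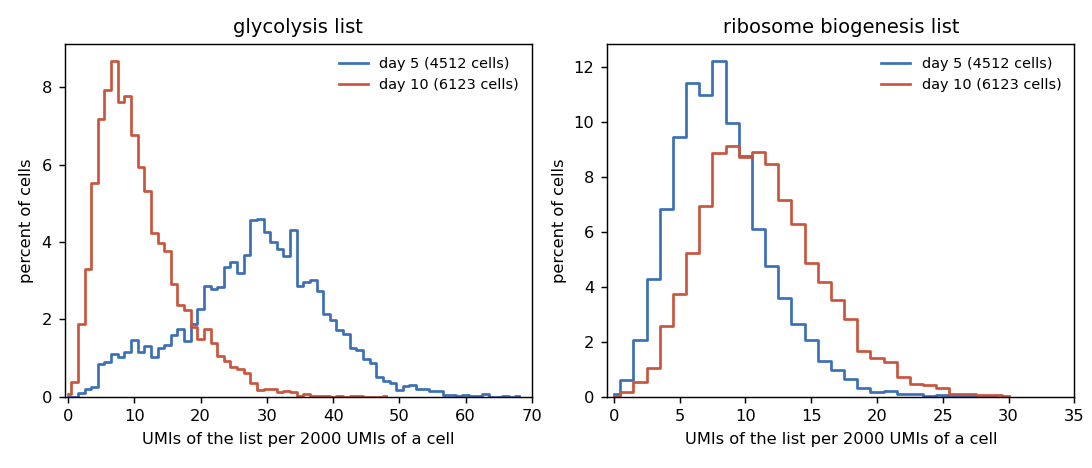
Percent of cells (y axis) by the number of UMIs of the glycolysis list (left) and the ribosome biogenesis list (right) per 2000 UMIs of the cell (x axis), for 4512 cells of day 5 and 6123 of day 10. The glycolysis distributions centre on 29 and 9 UMIs and overlap little, while the ribosome biogenesis distributions centre on 8 and 11 and overlap widely.

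Bnip3 is a textbook target of the hypoxia-inducible factors, and its promoter is shown because it holds the core of their response element repeatedly. The core was searched as ACGTG or GCGTG on both strands, which also matches the E-box CACGTG bound by MYC and related factors. The window runs from 250 bases before to 50 after the RefSeq start on GRCm38.p6, chr7:138909457-138909756, minus strand, and capitals mark the 5 matches, of which 2 overlap in 1 E-box.
Bnip3: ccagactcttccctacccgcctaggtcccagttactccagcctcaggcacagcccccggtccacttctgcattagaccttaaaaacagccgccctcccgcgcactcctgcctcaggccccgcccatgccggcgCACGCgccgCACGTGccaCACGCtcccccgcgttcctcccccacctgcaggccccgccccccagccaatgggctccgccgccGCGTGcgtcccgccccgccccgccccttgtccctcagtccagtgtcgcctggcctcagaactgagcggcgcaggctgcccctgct
A promoter was found for 17 of the 18 lower genes of the glycolysis list, and 12 of them (70.6%) held at least 1 core. The share was 67.2% among 4661 tested genes with a promoter and 43.8% among all 27025 promoters. The short core was thus present in most tested genes, in the glycolysis genes as in the rest. A match is a description and not a bound site. Hif1a itself went from 159 to 99.2 CPM, and any link of this RNA level to the glycolysis genes was not tested.

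Ribosome biogenesis genes, which act in the nucleolus to make and process ribosomal RNA, moved the other way. Of 25 tested, 8 were called higher and 0 lower, beside 1.98% of all genes called higher, and all 25 stood above 0 with a median log2 difference of 0.80 beside −0.10. Nolc1, a nucleolar phosphoprotein (chr19:46075863-46085530), rose from 50.1 CPM (47.0 to 53.5) to 144 CPM (140 to 148). Gnl3, nucleostemin, rose from 85.1 to 203 CPM. The H/ACA ribonucleoprotein subunits, which guide pseudouridine formation in ribosomal RNA, rose together: Dkc1 from 89.2 to 181 CPM, Nhp2 from 100 to 208 CPM and Gar1 from 42.2 to 93.9 CPM. Bop1 (18.3 to 41.0 CPM), Nop16 (21.8 to 48.5 CPM) and Rrp9 (21.3 to 46.0 CPM) were the other calls. Below the limit stood the methyltransferase Fbl (140 to 249 CPM) and the abundant proteins Ncl (1018 to 1273 CPM) and Npm1 (1676 to 1881 CPM). The number called was 2 to 12 under the alternatives, lowest with a pseudocount of 10 CPM, and 0 members were called lower in any of them.

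For ribosome biogenesis, day 10 was the highest point of the culture. Nolc1 was at 66.1 CPM in naive cells, 75.4 on day 3 and 50.1 on day 5 before 144 on day 10, and Dkc1 at 79.8, 89.6, 89.2 and 181 CPM. Per 2000 UMIs a cell held a median of 8 UMIs of the list on day 5 and 11 on day 10, in cells with and without Mki67 or Top2a alike. The amino acid transporters Slc7a5 (29.3 to 63.5 CPM) and Slc7a1 (27.1 to 58.5 CPM) were called higher, as 2 of 15 tested members of the amino acid and one carbon list, with 0 lower and a median of 0.19, and 4 were called higher with TMM scaling and 0 with a pseudocount of 10 CPM. Myc, a driver of ribosome production, stood at 209 and 162 CPM and was not called.

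Interferon-stimulated genes split in 2 directions. Of 16 tested in the IFITM and interferon-stimulated list, 6 were called higher and 3 lower, beside 1.98% and 4.21% of all genes. The median log2 difference was 0.93. Under the alternatives 5 to 8 members were called higher, fewest in cells with Mki67 or Top2a, and 3 lower in each. The genes that rose are textbook targets of type I interferon or membrane proteins of the IFITM family. Isg15, a ubiquitin-like modifier, rose from 11.4 CPM (9.96 to 13.1) to 48.0 CPM (45.6 to 50.4), and Ifit1, which binds foreign RNA, from 3.91 to 27.5 CPM. Rtp4 is given above. Of the IFITM genes, which encode membrane proteins that restrict virus entry, Ifitm1 rose from 147 to 450 CPM, Ifitm2 from 57.9 to 150 CPM and Ifitm3 from 14.3 to 38.8 CPM. Ifi27l2a (467 to 914 CPM), Irf7 (18.5 to 35.3 CPM) and Bst2 (86.7 to 144 CPM) stayed below the limit.

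The genes that fell encode interferon-inducible GTPases. Iigp1 went from 123 CPM (118 to 128) to 17.4 CPM (16.0 to 18.9), Gbp2 from 88.7 to 23.4 CPM and Igtp from 231 to 96.2 CPM. Isg15, Rtp4 and Ifit1 had been higher in naive cells (53.2, 49.9 and 37.6 CPM) than on day 5 and were low on day 3 (9.79, 3.57 and 4.83 CPM). Iigp1 took the reverse course with 22.3, 108, 123 and 17.4 CPM in naive cells and on days 3, 5 and 10. Ifitm1 was nearly absent in naive cells (0.650 CPM) and on day 3 (4.78 CPM).

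Interferon genes are switched by an element of 2 copies of GAAA with any 2 bases between them, the core of the interferon-stimulated response element, and the promoters of genes from both directions are shown because both hold it. The element was searched on both strands, and capitals mark the matches, which overlap in Isg15. The windows are as for Bnip3. The genes that rose are Isg15 (chr4:156200769-156201068, minus strand), Ifit1 (chr19:34640639-34640938, plus strand) and Ifitm3 (chr7:141010695-141010994, minus strand), and the genes that fell are Gbp2 (chr3:142620413-142620712, plus strand) and Igtp (chr11:58199306-58199605, plus strand).
Isg15: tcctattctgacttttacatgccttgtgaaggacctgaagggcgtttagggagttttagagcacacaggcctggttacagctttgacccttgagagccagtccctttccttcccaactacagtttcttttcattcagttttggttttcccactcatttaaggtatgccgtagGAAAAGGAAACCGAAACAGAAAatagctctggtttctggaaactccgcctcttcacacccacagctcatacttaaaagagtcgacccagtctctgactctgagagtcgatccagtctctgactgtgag
Ifit1: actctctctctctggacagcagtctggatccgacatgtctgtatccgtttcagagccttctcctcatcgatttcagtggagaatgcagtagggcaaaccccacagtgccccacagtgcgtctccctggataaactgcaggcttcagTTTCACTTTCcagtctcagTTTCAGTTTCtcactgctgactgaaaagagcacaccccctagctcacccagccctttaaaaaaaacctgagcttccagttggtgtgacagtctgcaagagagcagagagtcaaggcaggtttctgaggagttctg
Ifitm3: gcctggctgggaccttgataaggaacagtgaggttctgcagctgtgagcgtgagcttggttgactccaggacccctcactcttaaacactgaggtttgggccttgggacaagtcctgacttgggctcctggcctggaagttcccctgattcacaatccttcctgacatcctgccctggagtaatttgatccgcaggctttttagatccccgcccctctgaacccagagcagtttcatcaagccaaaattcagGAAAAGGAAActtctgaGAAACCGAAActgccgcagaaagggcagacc
Gbp2: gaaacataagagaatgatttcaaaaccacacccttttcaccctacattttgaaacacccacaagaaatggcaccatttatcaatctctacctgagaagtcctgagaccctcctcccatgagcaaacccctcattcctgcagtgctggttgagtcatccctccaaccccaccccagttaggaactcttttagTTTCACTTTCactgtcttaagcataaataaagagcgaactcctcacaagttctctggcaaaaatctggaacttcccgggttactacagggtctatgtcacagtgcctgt
Igtp: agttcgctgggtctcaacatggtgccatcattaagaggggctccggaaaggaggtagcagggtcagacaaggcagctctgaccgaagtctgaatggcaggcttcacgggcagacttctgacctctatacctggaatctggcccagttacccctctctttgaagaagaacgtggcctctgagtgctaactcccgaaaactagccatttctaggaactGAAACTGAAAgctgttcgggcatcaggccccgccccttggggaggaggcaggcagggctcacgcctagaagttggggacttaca
Of the 6 genes that rose, 5 had a promoter available and 4 of these held the element, all but Ifitm1. Of the 3 that fell, 2 had one and both held it. Rtp4 and Iigp1 had no promoter available. The element was present in 3.54% of the tested genes' promoters and in 3.49% of all promoters. The called genes came from a list of interferon-stimulated genes, so their higher share is not a result about this step. Members of the list that were not called were not counted.

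At 2000 UMIs, 13.2% of day 5 cells and 6.29% of day 10 cells had no UMI of the IFITM and interferon-stimulated list, and the medians were 2 and 4 UMIs. Single genes that rose were found in fewer cells. Isg15 had a UMI in 2.30% (1.89 to 2.79) of cells on day 5 and 8.28% (7.60 to 8.999) on day 10, Rtp4 in 2.46% and 11.6%, and Ifitm1 in 8.16% (7.37 to 8.99) and 20.6% (19.6 to 21.6). On day 10, 20.7% (17.3 to 24.5) of cells with Isg15 also had Rtp4, against 10.7% (9.94 to 11.6) of cells without Isg15. Iigp1 went the other way, from 17.0% to 2.71% of cells.

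In the list of stemness and memory genes most members stood lower. Of 16 tested, 2 were called higher and 3 lower, beside 1.98% and 4.21% of all genes. Below 0 stood 14 of 16, and the median was −0.55 beside −0.10. Il7r, the receptor of the survival cytokine IL-7, fell from 96.3 CPM (91.8 to 101) to 27.0 CPM (25.2 to 28.8), and was at 446 CPM in naive cells. Actn1 (63.3 to 25.3 CPM) and Bach2, a repressor of effector genes (62.2 to 28.0 CPM), fell as well. Tcf7, the transcription factor TCF1 of stem-like T cells, stood at 183 and 95.6 CPM, its partner Lef1 at 225 and 130 CPM, and Ccr7 at 122 and 65.4 CPM, all 3 short of the limit. Dapl1 stood at 152 and 144 CPM. The higher genes were Eomes, a transcription factor of memory and effector CD8 T cells (chr9:118478212-118486132), which rose from 34.7 CPM (32.1 to 37.5) to 106 CPM (102 to 109), and Il6ra, an IL-6 receptor chain (13.1 to 27.5 CPM). The list had 1 higher call, with Eomes still above the limit, without cells over 2 times the median UMIs, with a pseudocount of 10 CPM and in cells with or without Mki67 or Top2a taken alone. It had 2 lower calls with TMM scaling, the pseudocount of 10 CPM or centring by length, and 4 in cells without Mki67 or Top2a or as the mean of single cells.

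By cells, Tcf7 had a UMI in 29.3% (27.9 to 30.6) on day 5 and 17.8% (16.9 to 18.8) on day 10, beside 58.6% of naive cells. Eomes went from 6.21% (5.52 to 6.95) to 16.7% (15.8 to 17.7). Mki67 or Top2a was also counted by Tcf7: 27.7% of the cells with Tcf7 had either on day 5 and 25.0% on day 10, against 37.4% and 33.1% of cells without Tcf7. Cells of 1 library are not replicates, and this difference was not tested.

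Of 15 tested genes of quiescence and homing, 3 were called lower (beside 4.21% of all genes) and 0 higher, with a median of −0.59. They were the antiproliferative gene Btg1 (601 to 244 CPM), the CDK inhibitor Cdkn1b, p27 (155 to 68.9 CPM), and Tsc22d3 (73.2 to 32.6 CPM), a glucocorticoid-induced gene. With TMM scaling 1 call was left, and 2 with a pseudocount of 10 CPM or with centring by length. Klf2, which maintains homing receptors, stood at 335 and 302 CPM and its target S1pr1, which guides exit from lymph nodes, at 278 and 179 CPM.

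**Figure D4:**
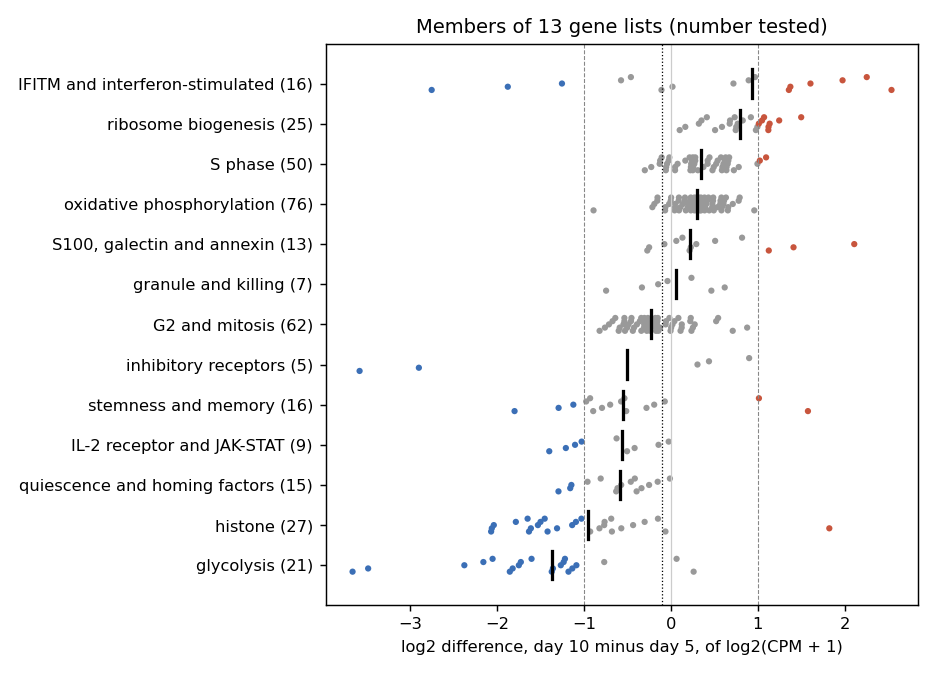
Log2 difference (x axis, day 10 minus day 5) of each tested member of 13 gene lists, with the number tested in parentheses. Black bars are list medians over members with at least 1 CPM, dashed lines mark the limits of −1 and 1, and the dotted line is the median of all tested genes, −0.10. The glycolysis members lie furthest to the left and the ribosome biogenesis members all lie above 0.

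Ctla4 and Tnfrsf9, receptors of activated T cells, were among the 15 largest falls, while most receptors tested were not called. Ctla4, an inhibitory receptor induced by activation, went from 108 CPM (103 to 113) to 13.6 CPM (12.3 to 14.9), after 245 CPM on day 3. Lag3 went from 22.4 CPM (20.2 to 24.6) to 0.950 CPM (0.645 to 1.35), near the naive level of 1.08 CPM. These were 2 of 5 inhibitory receptors tested, with 0 called higher, while Cd160 (34.7 to 43.2 CPM), Btla (17.7 to 24.4 CPM) and Lilrb4a (12.6 to 24.4 CPM, uncertain since over 50% of its 31-base stretches are shared) were not called. With TMM scaling, with centring by length and in cells without Mki67 or Top2a, 1 member was called higher. Cells with a UMI of Ctla4 went from 19.2% to 2.99% and with one of Lag3 from 4.37% to 0.229%. Tnfrsf9, the costimulator 4-1BB, fell from 96.4 to 15.7 CPM as the single call among 6 tested TNF receptor family genes and CD28 relatives, with 0 higher and a median of −0.49. Among 9 tested effector transcription factors, Ikzf2 (43.0 to 6.89 CPM) was called lower and 0 higher, with a median of −0.77 over the list. There were 2 lower calls with the limit of 5% mitochondrial UMIs, without cells over 2 times the median UMIs, with totals without ribosomal protein and mitochondrial genes or as the mean of single cells, and 4 of 10 in cells without Mki67 or Top2a. Tbx21, T-bet, stood at 15.2 and 15.7 CPM.

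Of the genes of IL-2 signalling, the receptor chains did not pass the limit. Il2ra, the alpha chain, stood at 126 CPM on day 5 and 81.5 CPM on day 10, Il2rb at 366 and 258 CPM and Il2rg at 248 and 244 CPM, and none of the 3 was called. Of 9 tested genes of the receptor and JAK-STAT list 4 were called lower (beside 4.21% of all genes) and 0 higher, with a median of −0.56. Among the 4 were Stat5b (48.2 to 20.3 CPM), Jak3 (36.7 to 16.6 CPM) and Stat3 (91.6 to 44.4 CPM). The number of lower calls was 3 with totals that leave out ribosomal protein and mitochondrial genes, 2 with TMM scaling or in cells with Mki67 or Top2a, and 1 with a pseudocount of 10 CPM or with centring by length. Stat5a stood at 21.3 and 19.2 CPM. Of 12 tested STAT5 targets, Odc1 was called higher and the phosphatases Dusp6 (42.7 to 11.5 CPM) and Dusp5 (36.0 to 17.5 CPM) lower, with a median of −0.36, and 1 of the lower calls was lost with TMM scaling, a pseudocount of 10 CPM, centring by length, the limit of 5% mitochondrial UMIs, totals that leave out ribosomal protein and mitochondrial genes, and in cells with Mki67 or Top2a. Cish, a feedback inhibitor induced by STAT5, stood at 73.3 and 69.2 CPM, and the survival gene Bcl2 at 813 and 641 CPM.

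Granule genes passed the limit in 0 of 7 tested cases in either direction, with a median of 0.06. This lies near the shares of all genes, 1.98% higher and 4.21% lower. Gzmb, granzyme B, stood at 526 CPM (515 to 536) on day 5 and 512 CPM (504 to 520) on day 10, after 871 CPM on day 3 and 6.50 CPM in naive cells. It had a UMI in 54.7% (53.2 to 56.1) and 53.4% (52.2 to 54.7) of cells. Nkg7, a granule membrane protein, went from 586 to 901 CPM, and Prf1, perforin, stood at 9.50 and 10.8 CPM, below the 20 CPM needed for a test. On day 10, 45.9% (42.9 to 48.9) of cells with Tcf7 also had Gzmb, against 55.1% (53.7 to 56.5) of cells without Tcf7. In naive cells the share with Gzmb was 0.582%.

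The list of S100, galectin and annexin genes held 3 calls. S100a6, a calcium-binding protein, rose from 960 CPM (946 to 974) to 2557 CPM (2540 to 2574) and S100a4 from 330 to 722 CPM, and Anxa1, annexin A1, from 9.01 to 42.2 CPM. They were 3 of 13 tested genes, beside 1.98% of all genes called higher, with 0 lower and a median of 0.22. The number was 4 with TMM scaling and 2 with centring by length. S100a4 shares at least 50% of its 31-base stretches with other genes and is uncertain. S100a6 had a UMI in 65.2% of cells on day 5 and 94.1% on day 10, beside 8.77% of naive cells. Ly6c2, a memory surface protein, rose from 379 to 771 CPM as the single call of 14 tested memory surface genes, with 0 lower and a median of −0.31 over the list, and was seen in 35.5% and 56.9% of cells. The call was lost in cells with Mki67 or Top2a. Ccr2, a chemokine receptor, rose from 53.6 to 135 CPM, while the integrins Itgb3 (106 to 31.8 CPM) and Itga4 (37.0 to 14.7 CPM) fell; they were the calls among 11 tested chemokine receptors and integrins, whose median was −0.22, and 1 of the lower calls was lost with centring by length or a pseudocount of 10 CPM.

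Cells with transcripts of division genes remained a large share of the culture. Cells with a UMI of Mki67 or Top2a were 34.6% (33.2 to 36.0) of cells on day 5 and 31.6% (30.5 to 32.8) on day 10, beside 1.86% (1.48 to 2.30) in naive cells and 57.3% (55.8 to 58.8) on day 3. Without thinning the shares were 39.8% and 40.6%, so the small difference turned with the depth of the cells. The 2 markers do not find every cell in the cycle. Cells without either held a mean of 2.11 UMIs of S phase genes per 2000 on day 5 and 3.54 on day 10. Of 62 tested genes of G2 and mitosis 0 were called in either direction (median −0.23), and of 50 S phase genes 2 were called higher and 0 lower (median 0.34): Mcm2, a subunit of the replicative helicase (34.7 to 71.5 CPM), and Cdca7 (27.9 to 60.9 CPM). Beside these counts, 1.98% of all genes were called higher and 4.21% lower. With TMM scaling 1 gene of G2 and mitosis was called higher. In cells without Mki67 or Top2a 2 of 19 tested genes of G2 and mitosis were called higher and 3 lower. The number of higher S phase calls was 0 with a pseudocount of 10 CPM, 1 with the limit of 5% mitochondrial UMIs or in cells with Mki67 or Top2a, and 2 to 4 in the other settings.

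Other genes of the cycle did move. Cdkn2a, which encodes the cell cycle inhibitors p16 and p19ARF, rose from 2.01 CPM (1.41 to 2.77) to 26.3 CPM (24.6 to 28.2), and its UMIs were found in 0.266% (0.137 to 0.464) and 4.83% (4.31 to 5.40) of cells. It was at 0.162 CPM in naive cells and 0.531 CPM on day 3. The pocket proteins Rb1 (28.2 to 13.2 CPM) and Rbl2 (48.4 to 22.2 CPM) were called lower, and Cdk4 stood at 99.8 and 168 CPM. In this list of CDK inhibitors and regulators of G1, 9 were tested, 1 was called higher and 2 lower, with a median of 0.35 that became −0.04 in cells without Mki67 or Top2a. In those cells 5 members were tested, with 0 called higher and 1 lower. Both lower calls were lost with TMM scaling, with a pseudocount of 10 CPM and with centring by length. Of 27 tested histone genes 15 were called lower and 1, Hist1h2ap, higher (456 to 1619 CPM), beside 4.21% and 1.98% of all genes. The median was −0.95. Of the 27, 12 were called lower with TMM scaling and 11 with a pseudocount of 10 CPM. In cells without Mki67 or Top2a 6 of 8 tested were called lower, and in cells with either 22 of 35. The linker histones Hist1h1e (373 to 131 CPM) and Hist1h1c (161 to 51.3 CPM) were among the lower ones. The summed level of the histone list was 3091 CPM on day 5 and 2799 CPM on day 10. Most histone transcripts carry no poly(A) tail. Any link between the histone calls and the noncoding transcripts named above was not tested. Hist1h2ap, a gene with near copies, had a log2 difference of 1.82 over all cells and of −0.54 in cells without Mki67 or Top2a.

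Most mitochondrial energy genes stayed within the limit. Of 76 tested nuclear genes of oxidative phosphorylation 0 were called in either direction, 67 stood above 0 and the median was 0.30. A cell held a median of 38 UMIs of this list per 2000 on day 5 and of 46 on day 10. Of 13 tested mitochondrially encoded genes 0 were called higher and 2 lower, with a median of −0.03 that became 0.17 with TMM scaling. Of 21 tested genes of cholesterol synthesis and 13 of fatty acid oxidation 0 were called, with medians of 0.09 and −0.27, and the proteasome list had 0 calls among 34 with a median of 0.35. Among 7 tested BCL2 family genes, Bax, a trigger of apoptosis, rose from 93.0 to 188 CPM, with 0 lower and a median of −0.07 that became 0.12 with TMM scaling. This call was lost without cells over 2 times the median UMIs, in cells without Mki67 or Top2a, with a pseudocount of 10 CPM and with centring by length.

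The step was set beside the same days in the 3 most similar cultures, each of which differs by cytokine or dose. In IL-2 at 5 IU/mL 4.62% of tested genes were called higher and 2.02% lower, in IL-15 at 5 IU/mL 1.32% and 3.46%, and in IL-2v at 50 IU/mL 1.58% and 11.6%. Of the 115 genes higher in IL-2v at 5 IU/mL, 27 were also called higher in IL-2 (23.5% of them and 10.3% of the IL-2 calls), 25 in IL-2v at 50 IU/mL (21.7% and 25.8%) and 0 in IL-15. Called lower were 8 of the 115 in IL-15 and 2 in IL-2v at 50 IU/mL. Of the 244 lower genes, 38 were also lower in IL-2 (15.6% and 33.3%), 27 in IL-15 (11.1% and 14.3%) and 95 in IL-2v at 50 IU/mL (38.9% and 13.3%), while 22 were called higher in IL-2 and 5 in IL-15. With 1 library per condition no difference between these steps was tested.

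**Figure D5:**
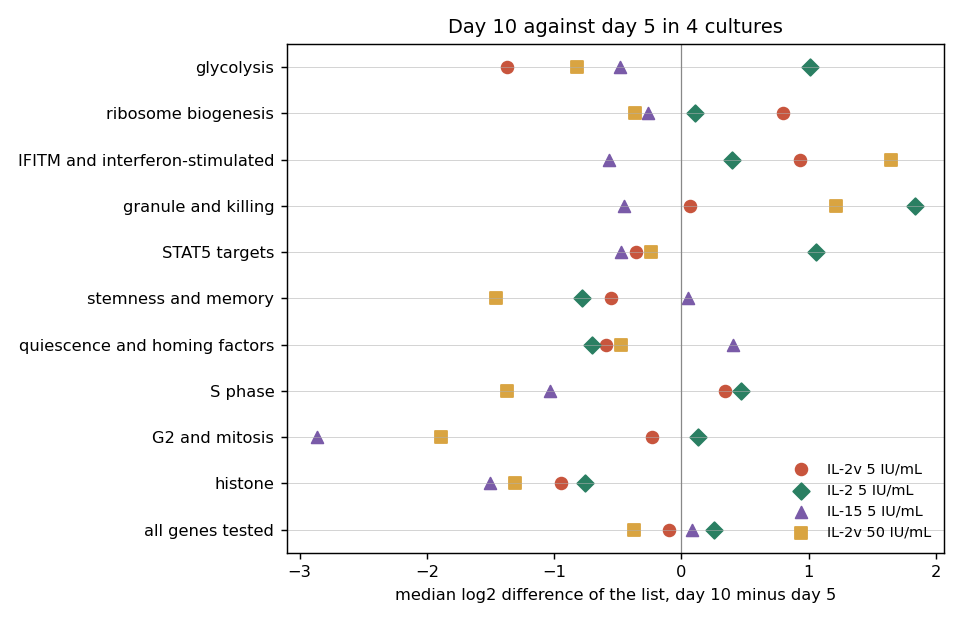
Median log2 difference between day 10 and day 5 (x axis) of 10 gene lists and of all tested genes (rows of the y axis) in 4 cultures, marked by colour and shape, with 1 library per culture and day. The glycolysis median is −1.37 in IL-2v at 5 IU/mL and 1.01 in IL-2 at 5 IU/mL, and the ribosome biogenesis median is 0.80 in IL-2v at 5 IU/mL and lies between −0.36 and 0.10 in the other cultures.

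For glycolysis the direction differed by culture, a difference that was not tested. In IL-2 at 5 IU/mL 12 of 19 tested members were called higher and 0 lower (median 1.01), and Aldoa went from 904 to 1824 CPM. In IL-2v at 50 IU/mL 6 of 21 were called lower and 0 higher (median −0.82), with Aldoa at 3553 and 2273 CPM, and in IL-15 4 of 15 lower and 1 higher (median −0.49). On day 10 Aldoa thus stood at 680 CPM in low-dose IL-2v, above 304 CPM in IL-15 and below the level in IL-2. Ribosome biogenesis genes were called higher in 0 members in each of the 3 other cultures, and lower in 2 of 19 in IL-2, 1 of 23 in IL-15 and 2 of 23 in IL-2v at 50 IU/mL. The summed level of this list was 4195 and 5816 CPM in IL-2v at 5 IU/mL. It was 5922 and 5140 CPM in IL-2v at 50 IU/mL, so the day 10 level was not particular to the low dose. In IL-2 it was 3162 and 3568 CPM and in IL-15 3969 and 2969 CPM.

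The IFITM and interferon-stimulated list had 5 of 14 tested members called higher and 0 lower in IL-2 (median 0.40), 10 of 16 higher and 1 lower in IL-2v at 50 IU/mL (median 1.65), and 0 of 11 higher and 1 lower in IL-15 (median −0.57).

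Granule genes and division also differed in value. Gzmb went from 272 to 912 CPM in IL-2, from 128 to 2.23 CPM in IL-15 and from 1938 to 3143 CPM in IL-2v at 50 IU/mL, beside 526 and 512 CPM in IL-2v at 5 IU/mL. Cells with Mki67 or Top2a went from 12.7% to 12.3% in IL-2, from 15.3% to 2.52% in IL-15 and from 59.7% to 17.6% in IL-2v at 50 IU/mL. Low-dose IL-2v thus had the highest share of such cells of these cultures on day 10, at 31.6%.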

How the data were processed

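The authors deposited 1 table of raw UMI counts per library, with 17516 gene symbols and 1 column per cell. Per the submitters' processing notes, Cell Ranger, Seurat 4.0.1, Seurat 3.0.2 and the build mm10 were used. Their settings, and any removal of doublets, are not given in the sources used here. The extraction text in the labels describes sorted tumour T cells, while the growth text describes culture, and the cells were treated as cultured. Groups came from the sample titles, which name IL-2v "bg".

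The cell filter (minimum 1000 UMIs and 500 genes, maximum 10% of UMIs from mitochondrial genes) left out no cell of the 2 libraries. No doublet caller was run. UMIs were summed per library and scaled to CPM, and differences were taken of log2(CPM + 1). List medians used members with at least 1 CPM in either library. The intervals were exact Poisson for CPM and exact Clopper-Pearson for shares. TMM factors came from edgeR 4.0.16 in R 4.3.3, and other values from Python 3.11.15 with SciPy. Sequences and positions came from RefSeq promoters (GRCm38.p6) and a GENCODE annotation of GRCm38, the assembly of mm10. Named genes were the 15 highest and 15 lowest differences among genes whose higher library had 50 CPM or more, without symbols of the Gm-number or Rik form, and members of 33 gene lists. A few of these genes are not reported here. Gm42418 and Malat1 were named after their values were seen. The comparison and the lists were chosen with earlier results of these data known. The calls and intervals were tried on simulated data before use. Those data held counting error only, so they cannot show how often differences between cultures would lead to calls. Alternatives were other scalings (TMM, totals without ribosomal protein and mitochondrial genes, mean CPM of single cells), another pseudocount, no filter on low values, other cell filters, and cells with or without Mki67 or Top2a. For gene and list calls the cells were split by Mki67 or Top2a without thinning, so that split depends on the depth of the cells. Centring by transcript length and totals without Gm42418, AY036118, Lars2 and Malat1 were added after seeing the data.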

Additional observations from a re-analysis of the deposited data

Results flagged for a closer look

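The glycolysis list moved in opposite directions in 2 cultures of the same dose. Its median log2 difference between day 10 and day 5 was −1.37 in IL-2v at 5 IU/mL and 1.01 in IL-2 at 5 IU/mL. The IFITM and interferon-stimulated list had a median of 0.93 in IL-2v at 5 IU/mL and of −0.57 in IL-15 at 5 IU/mL. In both pairs of cultures the medians had opposite signs and were at least 0.5 in size. With 1 library per culture and day the difference was not tested. The IFITM and interferon-stimulated list had a median of 0.40 in IL-2 at 5 IU/mL and of 1.65 in IL-2v at 50 IU/mL.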

How the results depend on the processing

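The count of genes called higher on day 10 (115) became 225 with TMM scaling, 192 with totals without ribosomal protein and mitochondrial genes, 52 with a pseudocount of 10 CPM and 189 with no filter on low values. The count called lower (244) became 150 with TMM scaling, 144 with the pseudocount of 10 CPM and 709 with no filter. The share of calls that were higher was 32.0%, and 60.0% with TMM scaling. The share of cells with Mki67 or Top2a on day 5 (34.6%) became 88.0% when cells were counted by at least 3 UMIs of the G2 and mitosis list, a rule that marked 80.7% of naive cells. It became 31.5% without cells over 2 times the median UMIs, 27.5% with thinning to 1000 UMIs and 39.8% without thinning. The day 10 share (31.6%) became 77.4%, 29.8%, 25.0% and 40.6% in that order. Hist1h2ap turned to −0.54 in cells without Mki67 or Top2a. The cause of these changes was not tested. No paired analysis was possible because each condition had 1 library, and no library could be left out. Levels near 1 CPM rest on few UMIs.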

Other observations

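The calls of other gene groups in IL-2v at 5 IU/mL stand beside 1.98% of all tested genes called higher and 4.21% lower. Of 83 tested ribosomal protein genes 2 were called higher and 0 lower, with a median log2 difference of 0.14. Of 16 tested genes of MHC class I presentation 0 were called, with a median of −0.20 that became 0.01 with TMM scaling. Of 12 tested genes of DNA methylation and Polycomb silencing 2 were called lower and 0 higher, with a median of −0.17 that became 0.03 with TMM scaling, which left 1 call. Jun, a subunit of the AP-1 transcription factor, fell from 116 to 50.6 CPM and was the single call of 9 tested immediate early genes, with 0 higher, 8 of 9 below 0 and a median of −0.49. This call was lost with TMM scaling. Of 10 tested heat shock and metallothionein genes 1 was called lower and 0 higher.

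The chemokine Ccl5 had a UMI in 12.9% of cells on day 5 and 24.9% on day 10. The list of cytokines and chemokines had 0 calls among 3 tested genes, with a median of 0.13. Its summed level was 713 CPM on day 5 and 601 CPM on day 10.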
